A study of Mus musculus with 6 samples.

Results

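The genes described here are 10 claudins, Cldn1, Cldn3, Cldn4, Cldn6, Cldn7, Cldn8, Cldn10, Cldn11, Cldn12 and Cldn23. They were taken by their gene names in the array annotation, with the endothelial Cldn5 left out, and are represented by 11 of the 41115 probes kept. A total of 9 of the 10 had a probe bright enough to be compared, among 17778 genes in all. Their RNA was measured in whole skin from the back of mice that were female, of the inbred strain C57BL/6J and aged 6 to 8 weeks. One group had received 62.5 mg a day of a cream with 5% imiquimod on the shaved back for 7 days. Imiquimod activates Tlr7 and is widely used to provoke inflammation like that of psoriasis in mouse skin. The other had received the same dose of vehicle cream. There were 3 samples per group, hybridised to 1 Agilent array each in a single colour. The labels do not say that each sample came from its own mouse, so spreads and p-values measure differences between samples that may be partly technical.

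Claudins are membrane proteins with 4 passes through the membrane that polymerise into the strands of tight junctions and set which ions and solutes pass between cells. Some members mainly seal the paracellular path, while others form channels in it. In the skin, tight junctions lie in the granular layer of the epidermis below the cornified layer, and they also occur in hair follicles and glands. Mice without Cldn1 lose water through the skin and die soon after birth.

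The records of the series did not give the treatment of an array in 1 way. In 6 of 6 scanner files the treatment word in the file name was opposite to that of the sample under which the file was deposited. In 6 of 6 cases the same word matched the title of the sample whose column in the deposited value table held the same values, where the Spearman correlation over 24253 probes was no lower than 0.9999997. With the column of the sample a file was deposited under, it was 0.943 to 0.953. Arrays are grouped here by the file name and the value table, which give the same grouping. Grouped by the place of deposit, each difference keeps its size and takes the opposite sign. S100a8, a neutrophil and stressed-keratinocyte protein, was 7.11 (SE 0.82) log2 units higher in the arrays grouped as imiquimod. Imiquimod array 1 and the 3 vehicle arrays shared a slide, and imiquimod arrays 2 and 3 lay on another. The share of probes well above background was 61.2% to 67.4% per array, and having only 3 arrays per group sets the precision.

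Values are log2 signals relative to each array's 75th percentile, so a level of 0 equals that percentile. Levels of different genes come from different probes and are not compared with each other. All 10 members had been listed with the differences of these arrays already known, so their differences are given as a description, without a p-value.

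Of the 9 members with a comparable probe, 9 were lower and 0 higher in imiquimod skin, with a median log2 difference of -1.88. The median over all 17778 genes was 0.02. The groups did not overlap, with imiquimod below vehicle, in 8 of the 9 members, against 20.7% of all genes, and 0 lay wholly above, against 25.9%. In the fit over all genes (limma, Benjamini-Hochberg adjusted p under 0.05) 6 of the 9 passed as lower, against 10.5% of all genes in that direction and 23.6% in either. Because the members were chosen with this contrast known, nothing is read from these shares. In imiquimod arrays 1, 2 and 3 the members together stood at -1.07, -0.91 and -0.90 log2 units from each gene's mean over the 6 arrays. In vehicle arrays 1, 2 and 3 they stood at 0.91, 1.29 and 0.68. Each of the 9 members varied more among the vehicle arrays than among the imiquimod arrays. This is not particular to the members: over all tested genes, arrays correlated at 0.950 to 0.980 within vehicle and 0.989 to 0.992 within imiquimod. With slide as a block, 3 members, Cldn3, Cldn4 and Cldn8, passed, and calls over all genes numbered 1059 in that fit, against 4196 without the block. Without any 1 of the imiquimod arrays, or without vehicle array 1, 4 passed, Cldn7 and Cldn10 did not, and 1689 to 1885 of all genes passed. Within slide 1, where 1 imiquimod array met 3 vehicle arrays, 0 passed in limma and 5 had an unadjusted p under 0.05, while 9 of 9 were lower and 8 of all genes passed. In bulk skin RNA, fewer cells of a type and less RNA per cell cannot be told apart.

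**Figure D1:**
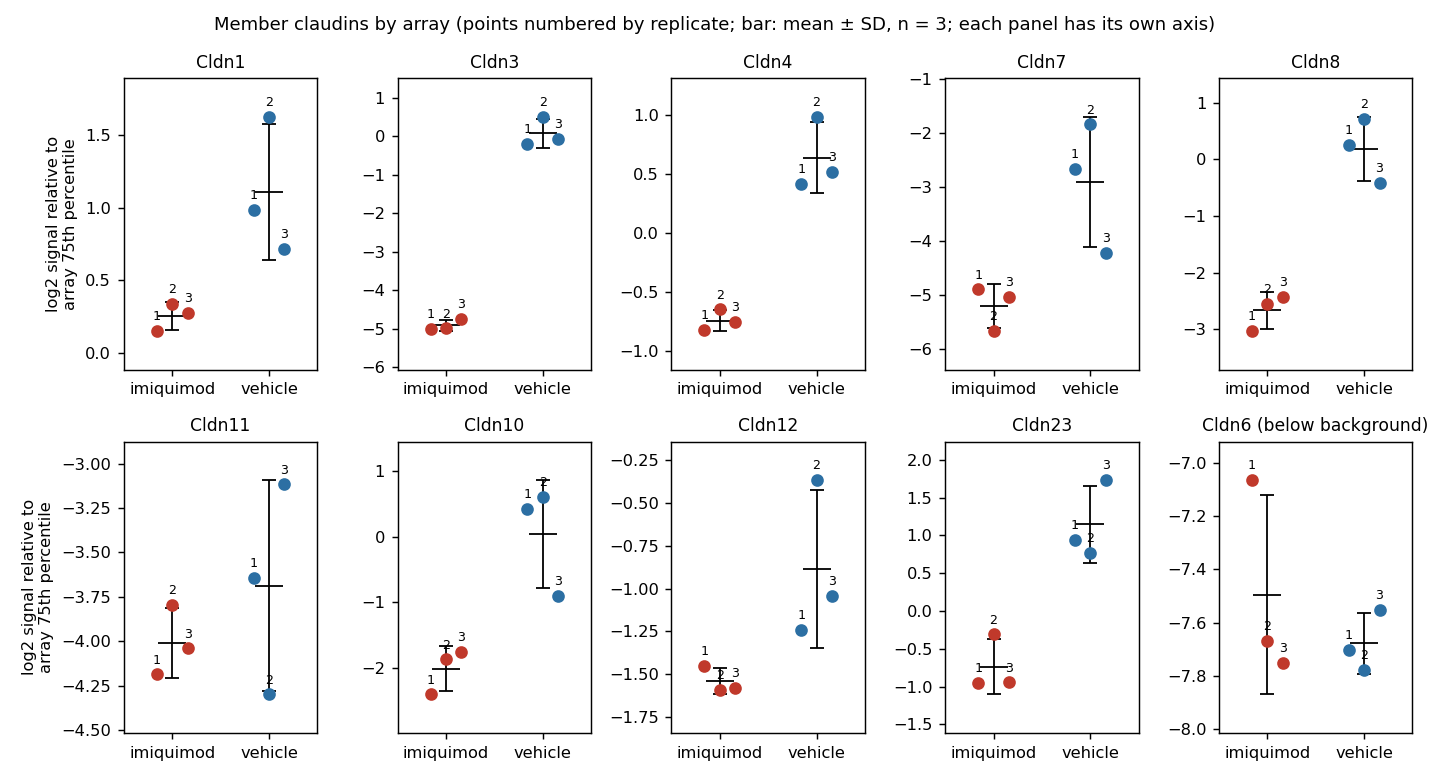
Log2 signal of each member claudin relative to the array's 75th percentile (vertical axis, a separate scale per gene) in the imiquimod and vehicle arrays, with points numbered by replicate and bars for the mean ± SD of 3 arrays. The imiquimod points lie below all vehicle points in 8 genes, overlap them in Cldn11, and have no interpretable order in Cldn6, whose probe was not above background on any array.

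Sequences around the start of transcription were examined for what the members share beyond their response. RefSeq promoter windows on GRCm38 (250 bases before to 50 after the start of transcription) were at hand for 8 of the 10 members, in 12 windows, since some genes have several starts. Those of the adjacent genes Cldn3 and Cldn4, of the barrier claudin Cldn1 and of Cldn7 are shown because they hold different numbers of the same short elements. Capitals mark the E-box CAGGTG, a site of Snail-family repressors, and the GC box GGGCGG, a site of Sp1-family factors, on either strand. The windows are chr5:134985964-134986263 (plus strand) for Cldn3, chr5:134946885-134947184 (minus strand) for Cldn4, chr16:26371790-26372089 (minus strand) for Cldn1 and chr11:69965171-69965470 (plus strand) for Cldn7.
Cldn3: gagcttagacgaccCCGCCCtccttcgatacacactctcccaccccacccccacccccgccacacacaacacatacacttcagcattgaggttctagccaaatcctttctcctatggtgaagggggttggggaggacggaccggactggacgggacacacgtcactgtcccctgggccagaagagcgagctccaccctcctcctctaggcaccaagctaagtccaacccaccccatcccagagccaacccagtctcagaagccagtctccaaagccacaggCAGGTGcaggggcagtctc
Cldn4: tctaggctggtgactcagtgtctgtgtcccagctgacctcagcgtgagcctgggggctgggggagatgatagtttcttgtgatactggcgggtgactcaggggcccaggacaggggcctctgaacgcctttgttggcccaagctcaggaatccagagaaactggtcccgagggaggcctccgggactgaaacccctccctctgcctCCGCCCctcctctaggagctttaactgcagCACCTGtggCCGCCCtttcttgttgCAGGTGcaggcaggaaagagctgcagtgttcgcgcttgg
Cldn1: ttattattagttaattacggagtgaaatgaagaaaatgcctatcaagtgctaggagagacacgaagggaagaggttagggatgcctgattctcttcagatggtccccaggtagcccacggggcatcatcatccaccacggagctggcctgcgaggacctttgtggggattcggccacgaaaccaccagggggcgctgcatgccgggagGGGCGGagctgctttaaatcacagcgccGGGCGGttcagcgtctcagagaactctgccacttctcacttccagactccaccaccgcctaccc
Cldn7: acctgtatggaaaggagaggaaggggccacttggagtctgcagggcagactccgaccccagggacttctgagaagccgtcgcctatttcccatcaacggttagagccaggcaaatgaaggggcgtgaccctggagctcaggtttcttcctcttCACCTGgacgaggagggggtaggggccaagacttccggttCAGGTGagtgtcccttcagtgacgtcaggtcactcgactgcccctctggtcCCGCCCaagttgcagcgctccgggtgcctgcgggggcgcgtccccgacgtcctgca

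The E-box was present in 4 of the 12 windows, those of Cldn3, Cldn4 and Cldn6 and the Cldn7 window shown, and it lay in 20.2% of all 32851 RefSeq promoter windows of this length. The Cldn4 window and the Cldn7 window shown held 2 copies each, and the Cldn3 window held 1. The Cldn1 window held 0 copies of the E-box and 2 of the GC box. A GC box was present in 9 of the 12 windows, against 35.7% of all windows. Each of the 8 genes had it in at least 1 window, but some have several windows, so this gene count has no matching share. The 3 Cldn12 windows overlap each other, so windows are not independent. The motif AACCNGTT of grainyhead-like factors was found in the windows of 0 members and in 2.09% of all windows, and the TATA box TATAAA in 0 members and 13.6% of all windows. Such matches describe the letters of these windows only.

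Among the claudins that mainly seal the paracellular path, Cldn1 is the one required for the epidermal water barrier. Its probe at chr16:26359010-26359069 (mm9, minus strand) gave 0.15, 0.34 and 0.28 in imiquimod arrays 1 to 3, against 0.98, 1.62 and 0.71 in vehicle arrays 1 to 3. All 3 imiquimod arrays lay within 0.19 log2 units of each other and below each vehicle array. The difference was -0.85 (SE 0.24), which is 55.4% of the vehicle level. A second Cldn1 probe, at chr16:26357372-26357431, averaged -0.32 in imiquimod arrays and 0.95 in vehicle arrays, a difference of -1.28 (SE 0.20), so both probes were lower and the size depended on the probe. Within slide 1 the Cldn1 difference was -0.96.

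Cldn3, a sealing claudin of simple and glandular epithelia and a receptor of Clostridium perfringens enterotoxin, had the largest difference of the 9 members. Its probe at chr5:135463179-135463238 (mm9, plus strand) gave -5.00, -4.99 and -4.75 in the imiquimod arrays, against -0.21, 0.50 and -0.08 in the vehicle arrays. The unscaled signals behind these were 26.8, 29.4 and 34.8 units in the imiquimod arrays and 959, 1494 and 893 units in the vehicle arrays. The difference was -4.99 (SE 0.21), a 31.7-fold lower signal, or 3.16% of the vehicle level. The probe was well above background on 2 of 3 imiquimod arrays, so the size rests partly on the background. With normexp background correction the difference was -3.48, and within slide 1 it was -5.08.

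Cldn4, the other enterotoxin receptor among the members and the neighbour of Cldn3 on chromosome 5, was measured by a probe at chr5:135421347-135421406 (mm9, minus strand). It gave -0.82, -0.65 and -0.75 in the imiquimod arrays, against 0.42, 0.99 and 0.52 in the vehicle arrays. The groups were tight and well separated, at -0.74 ± 0.09 in imiquimod arrays and 0.64 ± 0.30 in vehicle arrays (SD, n = 3 each). The difference was -1.38 (SE 0.17), or 38.4% of the vehicle level, and -1.46 within slide 1. The neighbouring genes thus differed in size, by -4.99 for Cldn3 and -1.38 for Cldn4, with the same order of the vehicle arrays, array 2 above 3 above 1.

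Cldn8, which interacts with Cldn4 in the renal collecting duct, had a probe at chr16:88561135-88561194 (mm9, minus strand). It gave -3.03, -2.55 and -2.42 in the imiquimod arrays, against 0.25, 0.71 and -0.41 in the vehicle arrays. The lowest vehicle array, array 3, still lay above all imiquimod arrays. The difference of -2.85 (SE 0.32) was the second largest of the 9 members, 13.9% of the vehicle level, and it was -3.21 within slide 1. It was well above background on all 6 arrays, and with normexp background correction it differed by -2.35.

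Cldn7 is a claudin of basolateral membranes in gut and kidney, whose loss damages the intestine of mice. Its probe, annotated to chr11:69780780-69781089 (mm9, plus strand), gave -4.90, -5.67 and -5.05 in the imiquimod arrays, against -2.67, -1.84 and -4.22 in the vehicle arrays. Unscaled signals were 28.8, 18.3 and 28.3 units in the imiquimod arrays and 174, 296 and 50.5 units in the vehicle arrays. Vehicle array 3 lay nearest to the imiquimod arrays, and the vehicle arrays spanned 2.38 log2 units, more than those of any other member. The difference was -2.30 (SE 0.61), with 1 of 3 imiquimod arrays well above background. With normexp background correction it was -1.07, so its size depended on how background was removed, and within slide 1 it was -1.99.

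Cldn11 builds the tight junctions of central myelin and of Sertoli cells in the testis. Its probe at chr3:31062922-31062981 (mm9, plus strand) gave -4.19, -3.80 and -4.04 in the imiquimod arrays, against -3.64, -4.30 and -3.12 in the vehicle arrays. The groups overlapped, because vehicle array 2 was the lowest of all 6 arrays. The difference of -0.32 (SE 0.31) was no larger than the spread between arrays. Of 8 listed Schwann cell markers 8 were tested, 1 rose, 3 fell and 4 did not pass in limma. Over all genes 13.1% were higher and 10.5% lower. Schwann cells are not the cells named above for Cldn11, and no source of the Cldn11 signal was tested.

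Among the members linked to paracellular ion flow, Cldn10 forms cation or anion channels, depending on its splice variant. Its probe at chr14:119273459-119273518 (mm9, plus strand) was not placed in an exon, so the variants cannot be told apart here. It gave -2.40, -1.87 and -1.75 in the imiquimod arrays, against 0.41, 0.60 and -0.90 in the vehicle arrays. Vehicle arrays 1 and 2 stood together, and array 3 lay well below them, yet above all imiquimod arrays. The difference was -2.04 (SE 0.43), or 24.3% of the vehicle level, and -2.43 within slide 1.

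Cldn12, which has been tied to calcium uptake in the gut, was measured at chr5:5505502-5505561 (mm9, minus strand). It gave -1.45, -1.59 and -1.58 in the imiquimod arrays, against -1.24, -0.37 and -1.04 in the vehicle arrays. The groups did not overlap, but vehicle array 1 lay close to imiquimod array 1. The difference was -0.66 (SE 0.24), 63.4% of the vehicle level. Vehicle arrays 2 and 3 carried the quality status evaluate from the extraction software, and without both of them the difference was -0.30. It was -0.57 within slide 1.

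Cldn23, a claudin of differentiated gut epithelium, was measured at chr8:36888151-36888210 (mm9, minus strand). It gave -0.95, -0.31 and -0.94 in the imiquimod arrays, against 0.95, 0.77 and 1.73 in the vehicle arrays. All vehicle arrays lay above the highest imiquimod array, array 2. The difference was -1.88 (SE 0.31), 27.1% of the vehicle level, and -2.10 within slide 1. Vehicle array 3 was the highest here, whereas it was the lowest vehicle array for Cldn1, Cldn7, Cldn8 and Cldn10.

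Cldn6, a claudin of embryonic epithelia, could not be compared. Its probe at chr17:23819027-23819086 (mm9, plus strand) was well above background on 0 of 6 arrays, with unscaled signals of 6.43, 4.59 and 4.34 units in the imiquimod arrays and 5.31, 4.82 and 5.02 units in the vehicle arrays. No fold is given, and the values have no order.

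**Figure D2:**
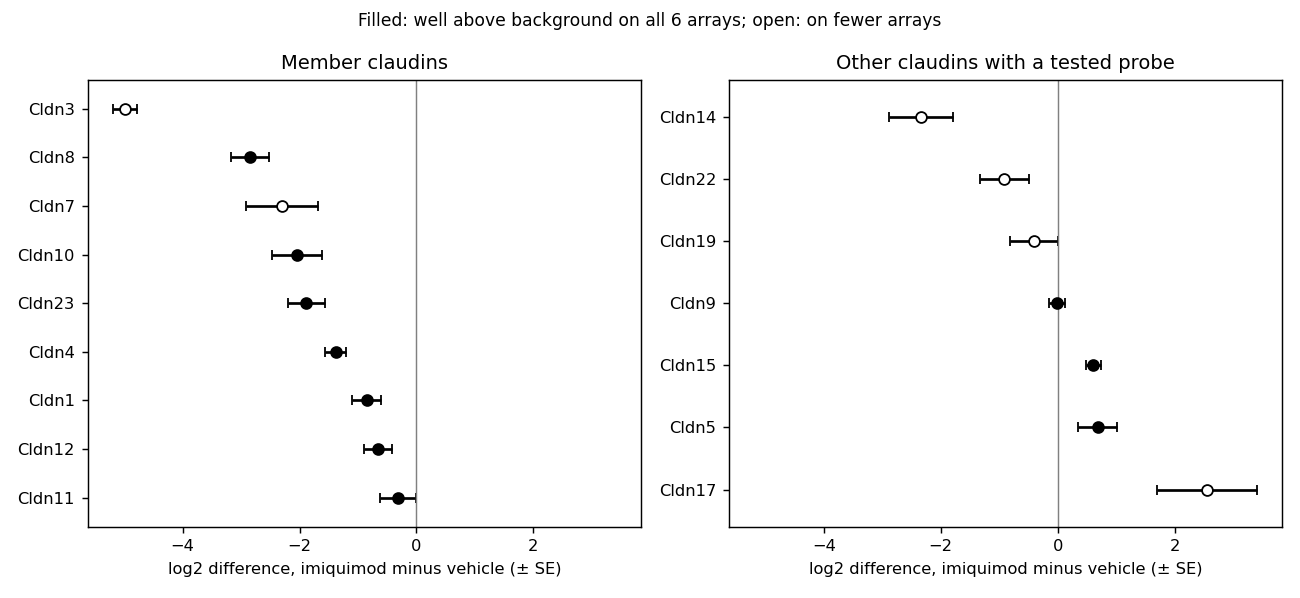
Log2 difference, imiquimod minus vehicle, with its standard error (horizontal axis) for the 9 comparable members on the left and the 7 other claudins with a tested probe on the right. The members run from -4.99 (Cldn3) to -0.32 (Cldn11), and the other claudins from -2.34 (Cldn14) to 2.56 (Cldn17); open points were not well above background on every array.

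The members fell into 3 patterns by the order of the vehicle arrays. Array 2 was the highest vehicle array for 7 members and array 3 for 2, Cldn11 and Cldn23. For Cldn1, Cldn7, Cldn8 and Cldn10 the order was array 2 above 1 above 3. The tested markers of the inner root sheath stood in that order, at 5.13, 5.96 and 2.38 log2 units from the gene means in vehicle arrays 1, 2 and 3, as did those of the hair shaft, at 5.25, 7.26 and 1.03. In imiquimod arrays 1, 2 and 3 these lists stood at -5.27, -4.48 and -3.72 and at -4.61, -4.41 and -4.52. The lists of outer root sheath and bulge, melanocytes, other claudins, regulators and adherens junction genes had the same order of vehicle arrays, so it is not particular to hair structures. For Cldn11 and Cldn23 the order was array 3 above 1 above 2, which was also that of the sebaceous gland markers, at -2.52, -1.39 and -1.76 in the imiquimod arrays and 1.94, 1.48 and 2.26 in the vehicle arrays. It was shared as well by the lists of basal keratinocytes, Schwann cells, endothelium, fibroblasts, adipocytes and skeletal muscle. For Cldn3, Cldn4 and Cldn12 it was array 2 above 3 above 1. With 3 arrays a given order is not rare, and the part of these structures in the claudin values was not tested.

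**Figure D3:**
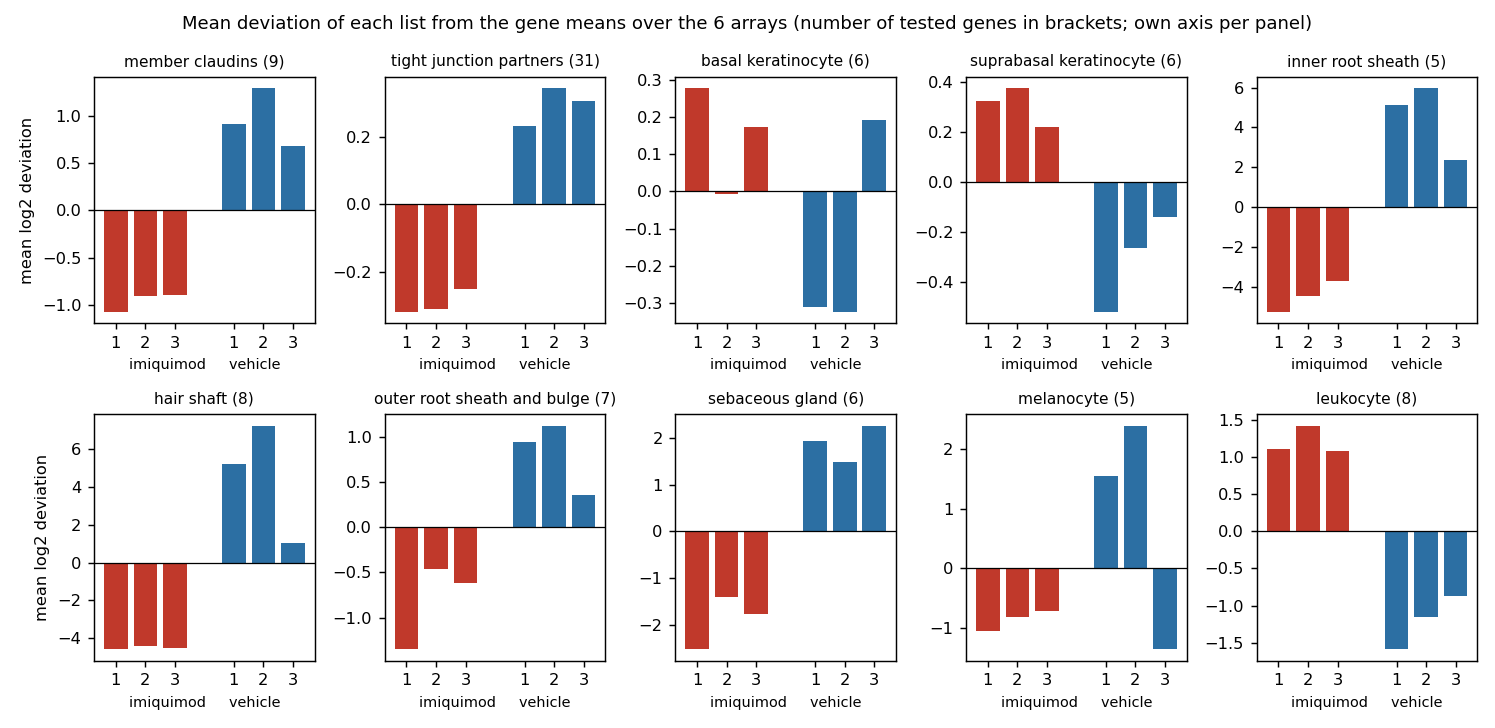
Mean log2 deviation of each gene list from its genes' means over the 6 arrays (vertical axis, a separate scale per panel), for imiquimod arrays 1 to 3 and vehicle arrays 1 to 3, with the number of tested genes in brackets. Member claudins, partner genes and markers of follicle sheath, hair shaft and sebaceous gland stood lower in imiquimod arrays, while suprabasal keratinocyte and leukocyte markers stood higher.

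Markers of the hair follicle and sebaceous gland were much lower in imiquimod skin, where the member claudins were lower too. All 5 tested markers of the inner root sheath fell in limma, as did 8 of 8 of the hair shaft and 6 of 6 of the sebaceous gland. The shares over all genes were 10.5% lower and 13.1% higher. Krt25, Krt34, Krt85, Krt86, Krt87 and Dsg4 were tested only through their vehicle signal, so the follicle counts partly follow from the filter. Krt25 of the inner root sheath and Krt34 and Dsg4 of the hair shaft were well above background on 0 imiquimod arrays, and they were at least 2363-fold, 549-fold and 11.1-fold lower there. Tchh, or trichohyalin, fell by 4.27 (SE 0.82, adjusted p = 0.0176), and the sebaceous enzyme gene Awat2 by 6.23 (SE 0.63, adjusted p = 0.00318). The median difference of outer root sheath and bulge markers was -0.95, with 4 of 7 fallen and 0 risen. Keratinocyte markers of the epidermis were well above background on all 6 arrays. Of 6 basal markers 3 rose and 1 fell, and of 6 suprabasal markers 2 rose and 0 fell, with median differences of 0.59 and 0.53. Krt14, a keratin of basal cells, rose by 2.25 (SE 0.15, adjusted p = 0.00155) and Krt1, a keratin of suprabasal cells, by 1.71 (SE 0.26, adjusted p = 0.00958), while Krt15, a basal and bulge keratin, fell by 2.12 (SE 0.32, adjusted p = 0.00937). Cdh1, the epithelial cadherin of adherens junctions, was named after its value was seen. It differed by -0.01 (SE 0.13, adjusted p = 0.966 in limma), with means of 3.04 ± 0.11 in imiquimod arrays and 3.05 ± 0.16 in vehicle arrays (SD, n = 3 each). Of 12 tested adherens junction genes 1 rose and 2 fell in limma, near the 13.1% and 10.5% of all genes. The epithelial share of the samples was not tested.

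Other claudins did not share a direction. Of 15 listed, 11 were on the array, and 7 had a tested probe; their median difference was -0.01. In limma 1 of the 7 rose, against 13.1% of all genes, and 1 fell, against 10.5%. This list, too, was made with earlier results of these data known. Cldn15, a cation-channel claudin of the gut, rose by 0.61 (SE 0.13, adjusted p = 0.0254), and Cldn14, known from kidney and inner ear, fell by 2.34 (SE 0.55, adjusted p = 0.0302), with 1 of 3 imiquimod arrays well above background. With normexp background correction the Cldn14 difference was -1.13. Neither gene passed when imiquimod array 1, 2 or 3 or vehicle array 1 was left out (adjusted p = 0.0696 to 0.101), nor with slide as a block (adjusted p = 0.140 for Cldn15 and 0.177 for Cldn14). Cldn17 differed by 2.56 (SE 0.85, adjusted p = 0.0792), Cldn5 by 0.69 (SE 0.33, adjusted p = 0.180), Cldn9 by -0.01 (SE 0.13, adjusted p = 0.962), Cldn19 by -0.41 (SE 0.41, adjusted p = 0.503) and Cldn22 by -0.91 (SE 0.42, adjusted p = 0.165). The Cldn17 probe was well above background on 1 of 3 vehicle arrays. With normexp background correction Cldn17 differed by 0.98 and passed (adjusted p = 0.0371), and it also passed without vehicle array 2 (adjusted p = 0.0186) and without both evaluate arrays (adjusted p = 0.0452). Cldn19 passed as lower without vehicle array 2, and Cldn5 as higher without vehicle array 3. Cldn2, Cldn13, Cldn16 and Cldn18 were well above background on 0 arrays.

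The proteins that share the tight junction with claudins were examined next. All 31 listed partner genes were tested; 11 fell, 0 rose and 20 did not pass in limma, against 10.5% of all genes lower and 13.1% higher. At an unadjusted p under 0.05, 13 were lower and 2 higher, against 17.7% and 21.3% of all genes. Their median difference was -0.39, against 0.02 over all genes. The list was made with earlier results of these data known, so nothing is read from these shares. The 3 four-pass proteins of the occludin family fell, Marveld3 by 2.11 (SE 0.14, adjusted p = 0.00161), Ocln, or occludin, by 2.09 (SE 0.27, adjusted p = 0.00573) and Marveld2, or tricellulin, which seals corners where 3 cells meet, by 1.83 (SE 0.15, adjusted p = 0.00207). Of the angulins, which recruit tricellulin to those corners, Ildr1 was well above background on 0 imiquimod arrays and at least 5.81-fold lower there. Ildr1 was tested only through its vehicle signal, so no p-value is given for it. With the filter on all 6 arrays, which drops Ildr1, 10 partner genes fell. Lsr fell by 1.26 (SE 0.16, adjusted p = 0.00579) and Ildr2 differed by -0.16 (SE 0.45, adjusted p = 0.818). Tjp1, the scaffold that links claudins to actin, differed by 0.11 (SE 0.28, adjusted p = 0.807). The highest differences were those of Pard6g, Jam2 and Prkcz, at 0.59, 0.50 and 0.43 (adjusted p = 0.0549, 0.159 and 0.0898). The number fallen was 5 with slide as a block and without imiquimod array 2 or vehicle array 1, 6 without imiquimod array 1 or 3, and 0 within slide 1, where 10 were lower at an unadjusted p under 0.05. Ocln, Marveld2 and Marveld3 passed in each of these fits that held more than 1 imiquimod array. Without both evaluate arrays Marveld2 and Marveld3 passed and Ocln did not.

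**Figure D4:**
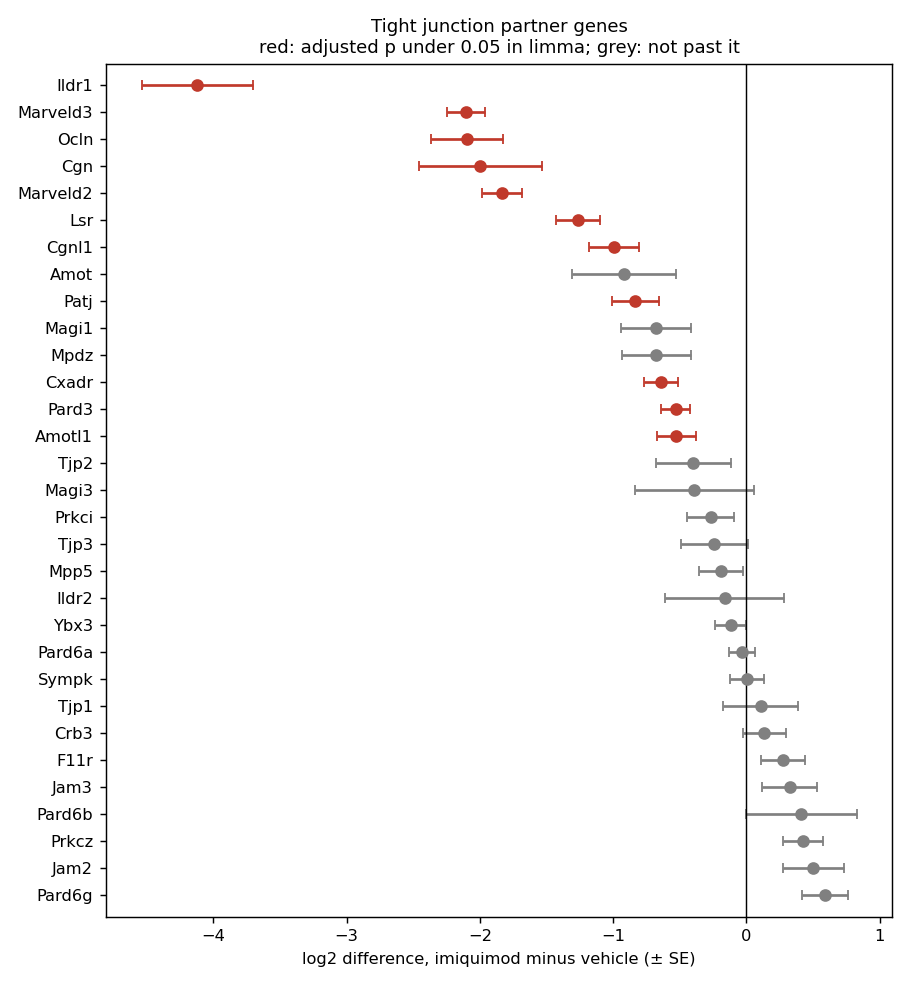
Log2 difference, imiquimod minus vehicle, with its standard error (horizontal axis) for the 31 tight junction partner genes, in red where the adjusted p was under 0.05 in limma and grey otherwise. The 11 red genes all lie below 0, with Ildr1 lowest, its imiquimod signal not well above background.

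Of 20 tested genes that regulate claudins or junction strands, 1 rose, 2 fell and 17 did not pass in limma. Over all genes 13.1% were higher and 10.5% lower. The count does not set the list apart, and the list was also made with earlier results of these data known. Snai2, a Snail-family repressor that binds E-boxes of claudin promoters in human cells, rose by 1.17 (SE 0.16, adjusted p = 0.00638) but did not pass when slide was a block (adjusted p = 0.0623). Wnk4, a kinase that phosphorylates claudins in kidney cells, fell by 2.87 (SE 0.27, adjusted p = 0.00278), and Epcam, which binds and stabilises Cldn7, fell by 1.32 (SE 0.14, adjusted p = 0.00331). St14, the protease matriptase, differed by -1.05 (SE 0.33, adjusted p = 0.0673), Snai1 by 0.69 (SE 0.34, adjusted p = 0.187) and Zeb2 by 0.41 (SE 0.25, adjusted p = 0.286). St14 and Spint1 passed as lower without vehicle array 3, which made 4 lower genes.

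Profiles over the 6 arrays were compared for the 3 members with the widest range, as the root mean square difference of gene-centred log2 values. The genes most like Cldn3 were Tesc (0.38) and Krt2 (0.41), those most like Cldn7 were Cldn14 (0.18) and Rasl11a (0.24), and those most like Cldn8 were Wnk4 (0.22) and the unnamed transcript AK076354 (0.25). The group difference makes up most of each profile, so this likeness is mainly a likeness of size and direction.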

How the data were processed

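The authors deposited 1 Agilent Feature Extraction file per sample, made with version 10.7.3.1 per the file headers, whereas version 9.1 is named in the submitters' processing notes. The scanner values are linear spot intensity, from which the authors' software had subtracted background and a spatial trend, per the file headers. The value table deposited beside them holds log2 signals, and its normalization between arrays is not given in the sources used here. Arrays were grouped by the sample whose value-table column matched each scanner file, which was the treatment word of the file's name.

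Control spots and 322 spots flagged as outliers on any array were left out, and each array was scaled to its 75th percentile. A probe was tested if 3 or more of the 6 arrays had it well above background, and the probe with the highest mean stood for its gene. Names came from RefSeq accessions (27644 probes), symbols (5581) or single synonyms (470), and otherwise from the files (7420). The file's Cldn25 probes carry an accession of Cldnd1 and were not used as a claudin.

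The comparison of groups used limma 3.58.1 under R 4.3.3 (two-sided, no covariates) over all genes, with Benjamini-Hochberg adjustment at 0.05, and the scripts were first run on simulated data with known changes. For a probe above background in only 1 group, the fold is a bound at each array's lowest signal well above background. The members and gene lists were chosen with earlier results of these data known. The genes named were all members, all tested other claudins, and the 3 highest and 3 lowest differences of each junction list, with further genes of biological interest named after their values were seen. In each marker list the highest and the lowest difference were named. The replicate numbers gave no sign of pairing the arrays: the correlations of their deviations over 17778 genes were -0.0872, 0.0676 and 0.0854. With 3 arrays per group these cannot settle whether samples were paired. Promoter windows and symbols are RefSeq's on GRCm38, and probe positions are the files' on mm9, for which no exon annotation was used.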

Additional observations from a re-analysis of the deposited data

How the results depend on the processing

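The median difference of the members was -1.88, -1.30 with normexp background correction, -1.38 with a filter on all 6 arrays, which drops Cldn3 and Cldn7, and 1.88 with the scanner files grouped by the sample they were deposited under. Every member stayed lower in the other alternatives, which were the value table, quantile and normexp processing, filters, probe means, slide, replicate number and left-out arrays; Cldn11 ranged from -0.63 to -0.04 and Cldn1 from -1.06 to -0.59. Cldn4 moved to -1.16 and Cldn12 to -0.30 without both vehicle arrays of quality status evaluate, a setting chosen after seeing the data. The count of members called was 3 with slide as a block, 4 with the replicate block and 4 to 7 without 1 array each. In the value table, with quantile normalization and with normexp it was again 6, with Cldn1 in place of Cldn7. Cldn7 also did not pass with no filter, with slide as a block, with the replicate block or without vehicle array 2. The same-numbered arrays showed no sign of being pairs, and the replicate block left 7 partner genes lower. For partner genes the lower count was 5 with slide as a block, 0 within slide 1, 5 to 11 without 1 array each and 5 without both evaluate arrays, and the higher count was 1 with normexp, with a filter on all 6 arrays and with probe means, and 0 to 1 without 1 array each. For other claudins, the higher count was 2 with normexp and without both evaluate arrays, 0 with no filter, slide as a block, slide 1 or the replicate block, and 0 to 2 without 1 array each; the lower count was 0 with no filter, the filter on all 6 arrays, slide as a block, slide 1 or the replicate block, and 0 to 2 without 1 array each. For regulators, the higher count was 0 with slide as a block and within slide 1, and the lower count 0 within slide 1 and 2 to 4 without 1 array each. For adherens junction genes, the higher count was 2 with probe means, 0 with slide as a block, slide 1 or the replicate block and 0 to 2 without 1 array each, and the lower count was 0 within slide 1. The causes of these changes were not tested, but the slide 1 fit holds 1 imiquimod array and so has fewer samples. Signals near background limit Cldn3, Cldn7, Cldn14, Cldn17, Cldn19, Cldn22, Cgn and Ildr1.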

Other observations

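Adherens junctions are the belts of cadherins and nectins beside tight junctions. Of 12 tested genes, 1 rose, 2 fell and 9 did not pass in limma, with a median difference of -0.10. Since 13.1% of all genes were higher and 10.5% lower, these counts do not set the list apart. Afdn, or afadin, which links nectins to actin, fell by 1.77 (SE 0.16, adjusted p = 0.00233), at 3.23 ± 0.10 in imiquimod arrays and 5.00 ± 0.25 in vehicle arrays (SD, n = 3 each). Nectin3, a nectin whose tail binds afadin, fell by 1.61 (SE 0.13, adjusted p = 0.00198), at 0.10 ± 0.11 in imiquimod arrays and 1.72 ± 0.16 in vehicle arrays (SD, n = 3 each). Jup, or plakoglobin, rose by 0.94 (SE 0.18, adjusted p = 0.0173), but did not pass when slide was a block (adjusted p = 0.0760) or without imiquimod array 1, 2 or 3 or vehicle array 1. Nectin2 differed by -0.73 (SE 0.31, adjusted p = 0.137), Vcl by 0.54 (SE 0.16, adjusted p = 0.0579) and Nectin1 by 0.18 (SE 0.16, adjusted p = 0.455).

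Markers of the skin's other cells were tested with limma too, and the part of these cells in the claudin values was not tested. For comparison, 13.1% of all genes passed as higher and 10.5% as lower, and the adipocyte count below is near that share. Leukocyte markers rose in 6 of 8 cases, and T cell marker Cd3e was lowest at -0.76 (SE 0.28, adjusted p = 0.102). Endothelial markers rose in 5 of 7, from 0.53 for Kdr, which did not pass (adjusted p = 0.0773), to 1.46 for Emcn (adjusted p = 0.00515). Fibroblast markers rose in 4 of 7, with the collagen gene Col3a1 highest at 1.11 (adjusted p = 0.00903) and Pdgfra lowest at 0.00 (SE 0.33, adjusted p = 0.996). Among Schwann cell markers, the myelin protein gene Mbp rose by 0.92 (adjusted p = 0.0267) and Egr2 fell by 2.48 (adjusted p = 0.0110). Among outer root sheath and bulge markers, Krt75 fell by 3.66 (adjusted p = 0.0269) and Krt17 differed by 0.13 (adjusted p = 0.732). The smallest fall among sebaceous markers was that of Plin2, by 1.30 (adjusted p = 0.0138), and suprabasal Sbsn differed by -0.09 (adjusted p = 0.781). Of 6 adipocyte markers 1 fell, the leptin gene Lep by 2.07 (adjusted p = 0.00549), and Plin1 was highest at -0.17 (adjusted p = 0.703). Of 5 melanocyte and 6 skeletal muscle markers, 0 passed and 0 had an unadjusted p under 0.05. Melanocyte differences ran from -2.23 (Slc45a2) to -1.34 (Pmel), and muscle differences from -0.91 (Tnnt3) to 0.38 (Myh4).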
